A study of Mus musculus with 15 samples.

Results

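The smooth muscle contractile apparatus was followed here as a set of 36 named mouse genes in 5 populations of lymphoid stroma. All 36 had a row with a single gene symbol in the deposited table, out of 18718 genes measured. For the 3 members with more than 1 row (Ppp1r12b, Filip1l and Actn1), the row with the highest mean over the 15 arrays was used. Members and the other gene lists named below were put together with earlier results of these data known.

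Cells came from C57BL/6 mice aged 2 weeks, with no other genotype or treatment in the labels, and had been freed with liberase and DNase I. All 5 populations were sorted as positive for PDGFRβ, the receptor for platelet-derived growth factor that marks mural cells and fibroblasts. PDPN (podoplanin) and BP3 (the product of Bst1) divided them further. Thymus gave PDPN- and PDPN+BP3- cells. Lymph nodes of 3 sites (axillary, brachial and inguinal), combined, gave PDPN-, PDPN+BP3- and PDPN+BP3+ cells. Both PDPN- populations were in addition gated as positive for Ly51, the product of Enpep, so a comparison with them crosses a pair of gates. Each population was measured on 3 arrays (n = 3 throughout) from 3 experiments. An experiment drew on 3 mice for thymus and on 10 to 11 mice for lymph node, and pool size and tissue therefore cannot be told apart.

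In smooth muscle, calcium and calmodulin switch on myosin light chain kinase, which phosphorylates the regulatory light chain so that myosin pulls on actin filaments, and a phosphatase reverses this. The actin filaments carry tropomyosin, caldesmon and calponin, and are held in dense bodies and in dense plaques at the membrane, joined by desmin and by LIM and PDZ domain scaffolds. Many of these genes are switched on by serum response factor (SRF) together with its coactivator myocardin, through a short DNA motif called the CArG box. In lymphoid organs the apparatus is best known from the mural cells of blood vessels, and several of its genes are also used by fibroblasts and by reticular cells that contract.

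Promoter sequences of the members were read from RefSeq (mouse build GRCm38.p6), because SRF is itself a member. A window of 250 bases before to 50 bases after each transcript start was at hand for 31 of the 36 members and for 27025 genes in all; Actg2, Tagln, Myh11, Nexn and Myocd had no entry. The CArG box was searched as CC, then 6 bases that are each A or T, then GG, a pattern that reads the same on both strands. It was present for 6 of the 31 members (19.4%), namely Myl9, Ldb3, Fhl1, Filip1l, Vcl and Srf, against 1.81% of the 27025 genes. Srf held 2 boxes in 1 window, as did 5 genes of the whole table. A looser pattern, with 1 G or C among the 6 core bases, was added after the strict matches had been seen; it matched for 5 of 31 members (16.1%: Acta2, Dstn, Fhl5, Myl9 and Pdlim3) and for 9.7% of all genes. Members were picked as contractile genes, many of which are known to be switched on through the CArG box. The comparison with all genes is therefore no test of control by SRF. A match is a description of letters, and its absence from a window of 300 bases says nothing of SRF at that gene. Of these, 4 members are shown by the 250 bases before their start, 5′ to 3′ on the gene's own strand, with strict and loose matches in capitals: Myl9, Vcl and Srf for strict boxes, and Acta2 for the loose pattern in the gene of smooth muscle actin. Their positions are chr2:156775214-156775463 (+ strand) for Myl9, chr14:20929148-20929397 (+ strand) for Vcl, chr17:46556163-46556412 (- strand) for Srf and chr19:34255374-34255623 (- strand) for Acta2.
Myl9: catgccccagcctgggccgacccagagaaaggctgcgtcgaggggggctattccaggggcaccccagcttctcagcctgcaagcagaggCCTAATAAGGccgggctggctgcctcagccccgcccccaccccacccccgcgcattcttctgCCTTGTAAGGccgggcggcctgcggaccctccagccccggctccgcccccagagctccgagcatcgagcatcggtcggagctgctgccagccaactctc
Vcl: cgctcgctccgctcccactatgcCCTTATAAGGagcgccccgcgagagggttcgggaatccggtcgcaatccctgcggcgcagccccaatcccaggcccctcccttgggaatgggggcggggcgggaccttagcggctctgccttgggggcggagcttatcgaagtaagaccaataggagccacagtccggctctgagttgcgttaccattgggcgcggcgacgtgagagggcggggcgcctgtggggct
Srf: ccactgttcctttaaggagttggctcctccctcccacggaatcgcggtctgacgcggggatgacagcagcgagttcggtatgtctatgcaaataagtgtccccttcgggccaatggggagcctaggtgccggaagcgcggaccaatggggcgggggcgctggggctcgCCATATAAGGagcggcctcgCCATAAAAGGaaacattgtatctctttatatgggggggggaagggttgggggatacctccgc
Acta2: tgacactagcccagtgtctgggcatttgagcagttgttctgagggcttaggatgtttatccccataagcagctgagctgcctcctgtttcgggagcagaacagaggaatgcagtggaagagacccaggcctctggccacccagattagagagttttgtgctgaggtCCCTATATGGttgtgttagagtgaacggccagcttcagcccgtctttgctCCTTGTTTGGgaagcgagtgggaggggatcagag
In Myl9 the strict box lay 161 to 152 bases before the start and a loose match 99 to 90 bases before it. The Vcl box lay at 227 to 218 bases, the Srf boxes at 82 to 73 and 62 to 53 bases, and the Acta2 matches at 84 to 75 and 34 to 25 bases before the start.

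The remaining strict boxes are shown with 20 bases on each side, since they belong to members that behaved differently from one another: Ldb3, lower in all PDPN+ cells, Filip1l, lower by the test in thymus but not in lymph node, and Fhl1, which went the other way. They lie at chr14:34588687-34588736 (- strand) for Ldb3, chr16:57549160-57549209 (+ strand) for Filip1l and chrX:56779561-56779610 (+ strand) for Fhl1.
Ldb3: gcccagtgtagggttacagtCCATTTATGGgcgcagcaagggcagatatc
Filip1l: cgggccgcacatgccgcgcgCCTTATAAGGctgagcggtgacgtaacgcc
Fhl1: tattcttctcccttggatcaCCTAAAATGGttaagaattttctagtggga
The boxes lay 35 to 26, 62 to 53 and 102 to 93 bases before the start, in the same order. Members with a strict box thus included genes lower and a gene higher in PDPN+BP3- cells.

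Values are deposited RMA signals on a log2 scale, from 1.07 to 12.07 with a median of 3.80 over the table; base 2 was inferred from this range. The array median was 3.58 for thymus PDPN+BP3- replicate 1 and 3.77 to 3.885 for the other 14 arrays, so results that change without that array are given both ways. Genes of the sort antigens lay on the side their labels give: Pdpn averaged 8.16 to 9.11 in the PDPN+ and 3.01 to 3.41 in the PDPN- populations, Bst1 8.74 in BP3+ cells and 2.18 to 3.30 elsewhere, Enpep 7.69 to 8.07 in PDPN- cells and 3.74 to 4.61 elsewhere, and Pdgfrb 8.94 to 10.61 in all 5. Whether probe sets of closely related genes (actins, tropomyosins, and the FHL and PDLIM families) also take up signal from one another was not checked, so values of such relatives may not be independent. Probe sets differ in their response, so levels are compared between populations and never between genes. A mean near or below the table's median of 3.80 need not stand above background, and differences that reach such a level are differences of signal.

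The contractile genes were higher in PDPN- than in PDPN+ cells in both organs. The mean was highest in a PDPN- population for 30 of the 36 members (15 in thymus, 15 in lymph node), in lymph node PDPN+BP3+ cells for 4 (Des, Pdlim3, Actn1 and Csrp1), in lymph node PDPN+BP3- cells for Fhl1 and in thymus PDPN+BP3- cells for Smtn. It was lowest in thymus PDPN+BP3- cells for 23. For 24 of 36 members every one of the 6 PDPN- arrays lay above every one of the 9 PDPN+ arrays, a separation found for 4.8% of all genes. The median over the members' means was 8.0 in thymus PDPN-, 7.97 in lymph node PDPN-, 7.06 in lymph node PDPN+BP3+, 6.74 in lymph node PDPN+BP3- and 6.50 in thymus PDPN+BP3- cells. In sorted pools of this kind, fewer contractile cells and less RNA per cell cannot be told apart.

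**Figure D1:**
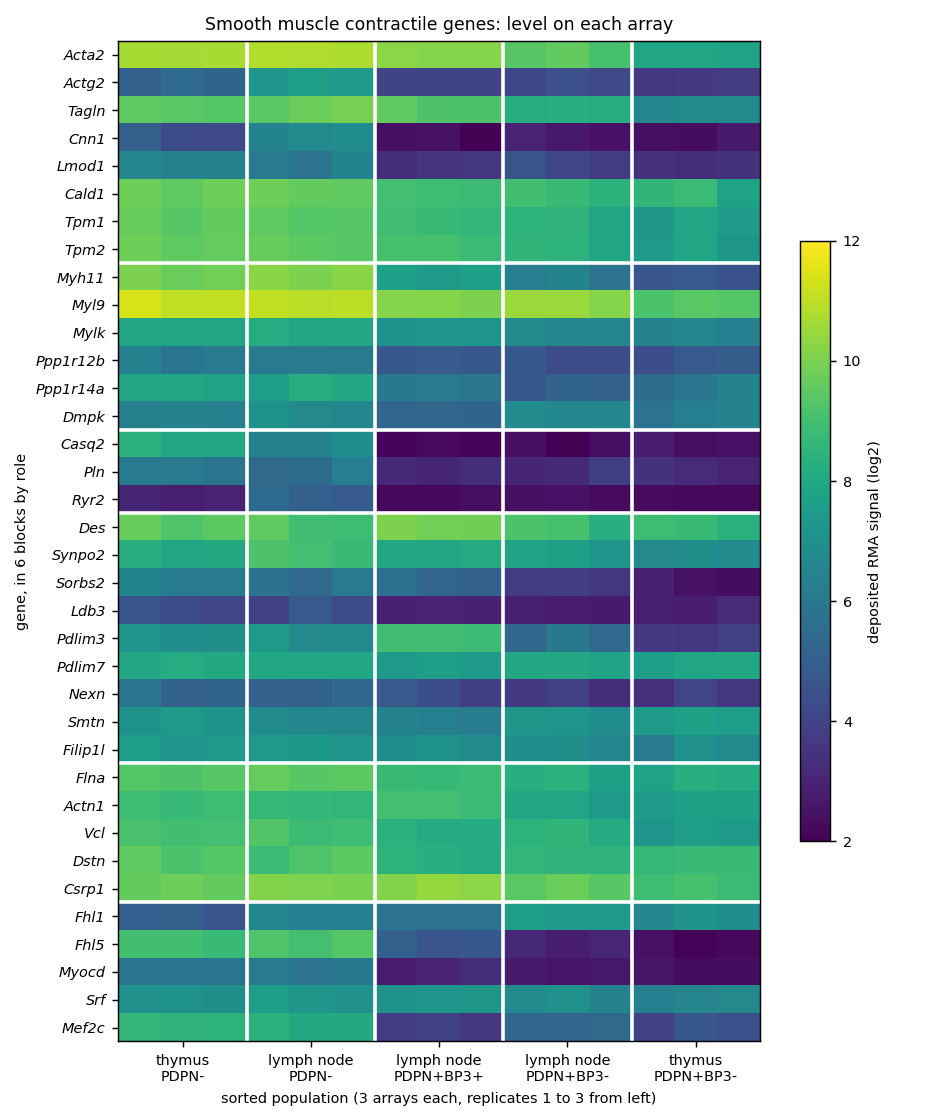
Level of each of the 36 genes (rows, in 6 blocks by role) on each of the 15 arrays (columns, 3 per population), as deposited RMA signal on a log2 colour scale from 2 to 12. The 6 PDPN- arrays on the left are the brightest for most genes, Pdlim3 and Des are brightest in lymph node PDPN+BP3+ cells, and Fhl1 is dimmest in thymus PDPN- cells.

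Differences between populations were tested with limma over all 18718 genes, with Benjamini-Hochberg adjustment and a threshold of 0.05; each is a log2 difference ± the standard error of the fit. In thymus, PDPN+BP3- cells were lower than PDPN- cells for 32 of 36 members and higher for 2 (Fhl1 and Smtn), while Dmpk and Pdlim7 did not pass. Over all genes, 18.2% were lower and 10.3% higher, and the median difference was -1.61 for the members and -0.05 for all genes. In lymph node the same contrast gave 30 members lower and again Fhl1 and Smtn higher, against 9.79% and 13.4% of all genes, with a median of -1.41 for the members and -0.01 for all genes. Des, Filip1l, Dmpk and Pdlim7 did not pass there. With quantile normalization the calls over all genes in this comparison turned from 2500 higher and 1832 lower to 2435 higher and 2496 lower. These comparisons, one in each organ, have no array in common, and 30 members were lower in both, as were 6.57% of all genes; no member was called with opposite signs. Lymph node PDPN+BP3+ cells, set against the same PDPN- arrays, were lower for 28 members and higher for 2 (Des and Pdlim3), against 11.2% lower and 16.1% higher over all genes, with a median of -0.84 for the members and 0.00 for all genes. With cyclic loess normalization the split of the calls over all genes in thymus turned from 1922 higher and 3415 lower to 2698 higher and 2211 lower, and that of the members was 2 higher and 31 lower.

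**Figure D2:**
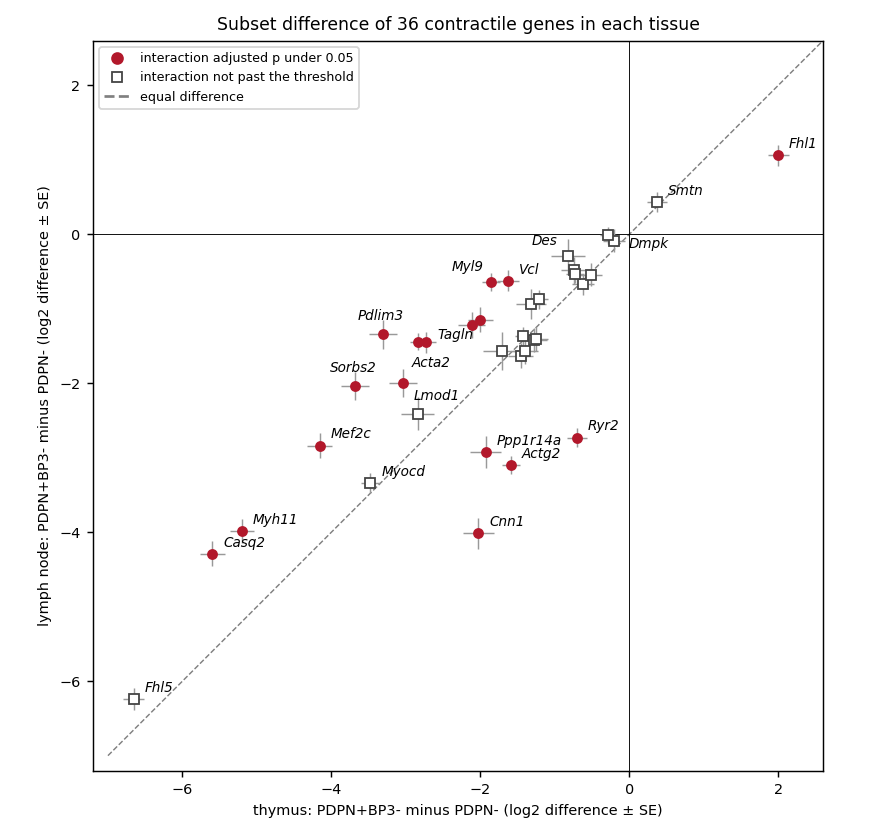
PDPN+BP3- minus PDPN- cells in thymus (horizontal axis) and in lymph node (vertical axis) for the 36 genes, as log2 differences with bars of 1 standard error; filled red circles passed the test that the difference is not the same in both tissues, open squares did not. Most genes lie in the lower left corner, down to Fhl5 at -6.66 and -6.24, and Fhl1 and Smtn lie in the upper right; Cnn1, Actg2, Ryr2 and Ppp1r14a are below the dashed line of equal difference.

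Among the 8 thin filament genes, all were lower than in PDPN- cells in each of the 3 PDPN+ populations. Acta2 encodes smooth muscle alpha-actin, the actin isoform by which smooth muscle is usually recognised. It read 10.69, 10.64 and 10.70 on the thymus PDPN- arrays and 10.84, 10.80 and 10.78 on the lymph node PDPN- arrays. On the PDPN+ arrays it read 10.25, 10.19 and 10.20 in lymph node PDPN+BP3+, 9.39, 9.61 and 9.09 in lymph node PDPN+BP3- and 7.88, 7.91 and 7.75 in thymus PDPN+BP3- cells. No 2 populations overlapped, and the order ran from lymph node PDPN- down to thymus PDPN+BP3- cells. The PDPN- populations did not differ from each other by the test described above. From PDPN- to PDPN+BP3- cells the difference was -2.83 ± 0.12 in thymus (adjusted p = 1.3e-11) and -1.44 ± 0.12 in lymph node (adjusted p = 7.03e-08), and from PDPN- to PDPN+BP3+ cells -0.59 ± 0.12 (adjusted p = 0.000913).

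Tagln encodes transgelin, an actin-binding protein that appears early in smooth muscle differentiation, and it followed nearly the same order. Its arrays read 9.55, 9.43 and 9.31 in thymus PDPN-, 9.44, 9.74 and 9.94 in lymph node PDPN- and 9.57, 9.21 and 9.17 in lymph node PDPN+BP3+ cells. They read 8.23, 8.31 and 8.23 in lymph node PDPN+BP3- and 6.58, 6.78 and 6.75 in thymus PDPN+BP3- cells. The first 3 populations overlapped, and the other two lay below them and apart. The difference in lymph node PDPN+BP3+ cells from PDPN- cells was small (-0.39 ± 0.14, adjusted p = 0.0446) and did not pass without lymph node PDPN- replicate 2 or 3 or PDPN+BP3+ replicate 2 or 3 (adjusted p = 0.107 to 0.202), nor when only the arrays compared were fitted (adjusted p = 0.114).

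Cnn1, encoding basic calponin, an inhibitor of actomyosin that is a late marker of contractile smooth muscle, was high in lymph node PDPN- cells (6.50, 6.78 and 6.87), lower in thymus PDPN- cells (5.06, 4.26 and 4.19) and between 2.07 and 2.95 on all 9 PDPN+ arrays. Actg2, the gamma-actin of enteric smooth muscle, read 7.21, 7.55 and 7.38 in lymph node PDPN- cells and 5.10, 5.49 and 5.21 in thymus PDPN- cells, with PDPN+ arrays at 3.62 to 4.46. For both genes the PDPN- populations were separate from each other and from all PDPN+ arrays. In lymph node the PDPN+BP3- cells differed from PDPN- cells by -4.01 ± 0.21 for Cnn1 (adjusted p = 2.93e-10) and -3.10 ± 0.12 for Actg2 (adjusted p = 1.25e-11), larger than in thymus (-2.03 ± 0.21 and -1.59 ± 0.12).

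The remaining thin filament genes are given by their means. Lmod1, leiomodin, which nucleates actin filaments, averaged 6.45 in thymus PDPN- and 6.16 in lymph node PDPN- cells and 3.41 to 4.16 in the PDPN+ populations, with differences of -3.04 ± 0.19 in thymus and -2.0 ± 0.19 in lymph node. The tropomyosins Tpm1 and Tpm2, which lie along the actin filament, averaged 9.45 to 9.64 in PDPN- and 7.53 to 9.0 in PDPN+ cells. Their differences in thymus were -2.0 ± 0.17 and -2.12 ± 0.18. In lymph node PDPN+BP3+ cells the Tpm2 difference from PDPN- cells (-0.52 ± 0.18, adjusted p = 0.0394) was lost when any array but lymph node PDPN- replicate 3 was left out (adjusted p = 0.0612 to 0.147). Cald1, caldesmon, had the smallest PDPN+BP3- change of the block, -1.32 ± 0.20 in thymus and -0.93 ± 0.20 in lymph node.

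Of the 6 genes of myosin, its kinases and its phosphatase, 5 were lower in PDPN+BP3- cells in each tissue, and all 6 were lower in PDPN+BP3+ than in PDPN- lymph node cells. Myh11 encodes the smooth muscle myosin heavy chain, the motor itself and the member most restricted to smooth muscle. Its PDPN- arrays read 10.02, 9.70 and 9.88 in thymus and 10.24, 10.04 and 10.23 in lymph node. PDPN+BP3+ arrays read 7.65, 7.44 and 7.66, lymph node PDPN+BP3- arrays 6.27, 6.50 and 5.79, and thymus PDPN+BP3- arrays 4.66, 4.85 and 4.50. As for Acta2, the arrays of all 5 populations were apart, but the PDPN- populations did not differ from each other by the test. All stood above the table's median. The differences from PDPN- cells were -5.20 ± 0.16 in thymus (adjusted p = 4.48e-13), -3.98 ± 0.16 in lymph node PDPN+BP3- (adjusted p = 1.3e-11) and -2.59 ± 0.16 in lymph node PDPN+BP3+ cells (adjusted p = 2.33e-09).

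Myl9, the regulatory light chain on which the kinase acts, differed less (-1.85 ± 0.12 in thymus, -0.64 ± 0.12 in lymph node) and averaged 9.32 to 11.18 across the populations. Mylk, the light chain kinase, averaged 7.89 and 8.02 in PDPN- cells (thymus, then lymph node) and 6.47 to 7.18 in PDPN+ cells, and its differences of -1.42 ± 0.12 and -1.36 ± 0.12 were almost equal. Ppp1r14a, known as CPI-17, inhibits the phosphatase and thereby raises the force at a given calcium level. It averaged 7.91 and 7.95 in PDPN- cells, 6.05 in lymph node PDPN+BP3+, 5.98 in thymus PDPN+BP3- and 5.03 in lymph node PDPN+BP3- cells. Its difference was -2.92 ± 0.21 in lymph node (adjusted p = 1.84e-08) and -1.93 ± 0.21 in thymus (adjusted p = 2.1e-06).

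Ppp1r12b, a myosin-targeting subunit of the phosphatase, was lower by the same test in thymus (-1.46 ± 0.17) and lymph node (-1.63 ± 0.17). It has 7 rows on the array, and with their mean the differences were -0.62 (adjusted p = 0.0124) in thymus and -0.38 (adjusted p = 0.136) in lymph node. Dmpk, the myotonic dystrophy kinase, stood apart from the block. It averaged 6.81 in lymph node PDPN-, 6.72 in lymph node PDPN+BP3-, 6.4 in thymus PDPN- and 6.20 in thymus PDPN+BP3- cells, with arrays of the subsets overlapping in each tissue. Lymph node PDPN+BP3+ arrays read 5.26, 5.32 and 5.21, below all others (-1.54 ± 0.15 against PDPN- cells, adjusted p = 7.12e-07).

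The calcium store genes gave some of the sharpest contrasts. Casq2 encodes calsequestrin 2, which binds calcium in the sarcoplasmic reticulum. It read 8.39, 8.0 and 8.01 in thymus PDPN- and 6.35, 6.39 and 6.90 in lymph node PDPN- cells, and 1.97 to 2.75 on the 9 PDPN+ arrays, all below the table's median. The PDPN- populations did not overlap, and thymus was the higher. PDPN+BP3- cells differed from PDPN- cells by -5.60 ± 0.17 in thymus (adjusted p = 3.77e-13) and -4.29 ± 0.17 in lymph node (adjusted p = 1.02e-11).

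Pln, phospholamban, which restrains the calcium pump of the same store, averaged 6.05 in thymus PDPN- and 5.75 in lymph node PDPN- cells and 3.17 to 3.35 elsewhere, with differences of -2.84 ± 0.22 and -2.41 ± 0.22. Ryr2 encodes the ryanodine receptor that releases the stored calcium, and it rose above the table's median in lymph node PDPN- cells alone. There it read 5.48, 5.06 and 4.87, against 3.03, 2.85 and 2.94 in thymus PDPN- cells and 2.20 to 2.5 on the PDPN+ arrays. PDPN+BP3- cells differed from PDPN- cells by -2.73 ± 0.13 in lymph node (adjusted p = 1.43e-10) and -0.70 ± 0.13 in thymus (adjusted p = 0.000658), the latter between levels below the table's median.

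**Figure D3:**
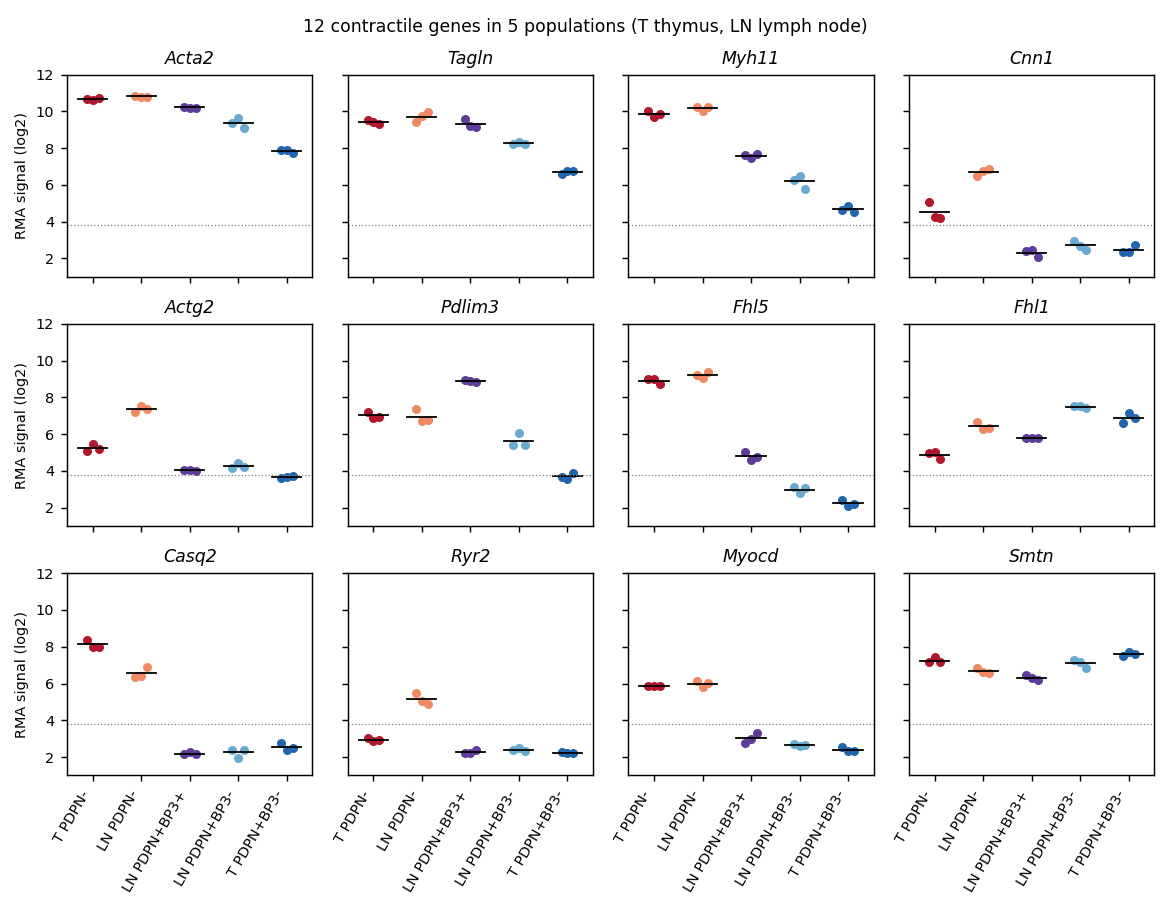
Deposited RMA signal (log2) on each array for 12 of the genes in the 5 populations, with a black line at each mean and a dotted line at the table's median of 3.80. Acta2, Tagln and Myh11 step down from PDPN- to thymus PDPN+BP3- cells, Cnn1, Actg2 and Ryr2 are highest in lymph node PDPN- cells, Casq2 is highest in thymus PDPN- cells, and Pdlim3 is highest in lymph node PDPN+BP3+ cells.

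The 9 genes of intermediate filaments, dense bodies and Z-line type scaffolds were the most mixed block. In thymus, 7 were lower in PDPN+BP3- cells and Smtn higher; in lymph node, 5 were lower and Smtn higher. Pdlim3 encodes ALP, a PDZ and LIM protein that binds alpha-actinin. It read 7.22, 6.89 and 6.95 in thymus PDPN- and 7.38, 6.72 and 6.78 in lymph node PDPN- cells, 5.39, 6.06 and 5.40 in lymph node PDPN+BP3- and 3.66, 3.58 and 3.89 in thymus PDPN+BP3- cells. The lymph node PDPN+BP3+ arrays, at 8.95, 8.92 and 8.85, lay above all other arrays. The difference from PDPN- cells was therefore positive in PDPN+BP3+ cells (1.95 ± 0.19, adjusted p = 6.39e-07) and negative in PDPN+BP3- cells of lymph node (-1.34 ± 0.19) and thymus (-3.31 ± 0.19).

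Sorbs2, an SH3 adaptor of dense bodies and adhesions, is the gene next to Pdlim3 on chromosome 8, with 0 coding genes between them in RefSeq. It read 6.51, 6.11 and 6.13 in thymus PDPN- and 5.76, 5.43 and 6.08 in lymph node PDPN- cells. PDPN+BP3+ arrays read 5.67, 5.28 and 5.09, lymph node PDPN+BP3- arrays 3.75, 3.81 and 3.59, and thymus PDPN+BP3- arrays 2.90, 2.45 and 2.35. PDPN+BP3+ cells overlapped lymph node PDPN- cells, and the difference of -0.41 ± 0.19 did not pass (adjusted p = 0.134; 0.0466 without lymph node PDPN- replicate 2 and 0.0308 with quantile normalization). In PDPN+BP3- cells it was lower by -2.04 ± 0.19 in lymph node and -3.68 ± 0.19 in thymus.

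Des, desmin, the intermediate filament of muscle, was highest in lymph node PDPN+BP3+ cells (10.02, 9.89 and 9.83). It read 9.69, 9.24 and 9.48 in thymus PDPN- and 9.55, 8.93 and 8.88 in lymph node PDPN- cells, and 8.27 to 9.15 in both PDPN+BP3- populations. In lymph node it was 0.79 ± 0.23 higher in PDPN+BP3+ cells, against PDPN- cells, (adjusted p = 0.0148), a call lost without PDPN- replicate 2 or 3 or PDPN+BP3+ replicate 1 (adjusted p = 0.0564 to 0.0666). In thymus it was lower in PDPN+BP3- cells (-0.82 ± 0.23, adjusted p = 0.0116), which did not pass without PDPN+BP3- replicate 3 or PDPN- replicate 1 (adjusted p = 0.0527 and 0.0593).

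Synpo2, known as myopodin, which bundles actin at Z-lines, was lower in PDPN+BP3- cells by -1.27 ± 0.16 in thymus and -1.42 ± 0.16 in lymph node. Ldb3, also called Cypher or ZASP, a Z-line PDZ protein, averaged 4.34 and 4.36 in PDPN- cells (thymus, then lymph node) and 2.79 to 2.95, below the table's median, in all PDPN+ cells. Nexn, nexilin, an actin-binding protein of Z-lines, was lower by -1.71 ± 0.26 and -1.57 ± 0.26 in thymus and lymph node. Its difference of -0.85 ± 0.26 between PDPN+BP3+ and PDPN- cells (adjusted p = 0.0196) was lost without PDPN- replicate 3 or PDPN+BP3+ replicate 3 (adjusted p = 0.0696 and 0.114).

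Smtn, smoothelin, usually taken as a marker of fully contractile smooth muscle, did not follow the block. It averaged 7.61 in thymus PDPN+BP3-, 7.24 in thymus PDPN-, 7.11 in lymph node PDPN+BP3-, 6.68 in lymph node PDPN- and 6.32 in lymph node PDPN+BP3+ cells. The rise in PDPN+BP3- cells was small, 0.37 ± 0.13 in thymus (adjusted p = 0.0468) and 0.43 ± 0.13 in lymph node (adjusted p = 0.0258). The first did not pass without thymus PDPN+BP3- replicate 2 or 3 or PDPN- replicate 1 or 3 (adjusted p = 0.0782 to 0.15), nor with only genes above the table's median, a trended prior or only the arrays compared (0.0517 to 0.0729), and with cyclic loess normalization it was 0.60 (adjusted p = 0.00182). The second did not pass without lymph node PDPN- replicate 2 or 3 or PDPN+BP3- replicate 1 or 2 (adjusted p = 0.0846 to 0.13), nor with only the arrays compared (0.0663). Pdlim7, known as Enigma, averaged 7.49 to 8.10 in all populations. Its difference did not pass in either PDPN+BP3- comparison (adjusted p = 0.069 in thymus and 0.959 in lymph node, and 0.0369 in thymus without PDPN+BP3- replicate 3). Filip1l, a filamin-interacting protein, was lower in thymus (-0.74 ± 0.18, adjusted p = 0.00521) and did not pass in lymph node (-0.48 ± 0.18, adjusted p = 0.0685), although its arrays did not overlap there and it passed under 5 of the 7 other settings (adjusted p = 0.00454 to 0.047). With the mean of its rows the thymus difference was -0.41.

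The 5 genes of actin crosslinking and adhesion were all lower in PDPN+BP3- cells in both tissues. Flna, filamin A, which crosslinks actin, differed by -1.25 ± 0.16 in thymus and -1.41 ± 0.16 in lymph node. Vcl, vinculin of the dense plaque, averaged 9.05 and 9.01 in PDPN- cells and 7.42 in thymus PDPN+BP3-, 8.39 in lymph node PDPN+BP3- and 8.24 in PDPN+BP3+ cells. Dstn, destrin, which severs actin filaments and is no marker of muscle, differed by -0.62 ± 0.15 and -0.67 ± 0.15. Actn1, alpha-actinin 1, read 9.03, 9.02 and 8.83 in lymph node PDPN+BP3+ cells and 8.67, 8.62 and 8.59 in PDPN- cells (0.33 ± 0.13, adjusted p = 0.076, or 0.0481 with only these arrays fitted), but 7.96, 7.87 and 7.43 in lymph node PDPN+BP3- and 7.47, 7.67 and 7.70 in thymus PDPN+BP3- cells. The other Actn1 row averaged 4.85 in PDPN+BP3+ and 5.21 in PDPN- cells of lymph node and 5.55 in thymus PDPN- cells. With the mean of both rows the PDPN+BP3+ difference was -0.015 (adjusted p = 0.966). Csrp1, a cysteine and glycine rich LIM protein, averaged 10.26 in PDPN+BP3+ and 10.06 in PDPN- cells of lymph node, whose arrays overlapped, and 9.53 in PDPN+BP3- cells.

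The LIM cofactors and transcription factors held Fhl5 and the main exception of the set, Fhl1. Fhl5, also called ACT, is a LIM-only protein that serves as a coactivator. It read 8.99, 8.99 and 8.72 in thymus PDPN- and 9.24, 9.07 and 9.37 in lymph node PDPN- cells. The PDPN+BP3+ arrays read 5.05, 4.62 and 4.75, the lymph node PDPN+BP3- arrays 3.11, 2.79 and 3.06, and the thymus PDPN+BP3- arrays 2.43, 2.08 and 2.22. The arrays of all 5 populations were apart, but the PDPN- populations did not differ from each other by the test. Both PDPN+BP3- populations lay below the table's median. Its differences from PDPN- cells, -6.66 ± 0.14 in thymus (adjusted p = 1.8e-14), -6.24 ± 0.14 in lymph node PDPN+BP3- (adjusted p = 7.24e-14) and -4.42 ± 0.14 in PDPN+BP3+ cells (adjusted p = 8.4e-13), were among the largest of the set.

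Fhl1, the four-and-a-half LIM protein of skeletal and cardiac muscle, ran the other way. It read 4.97, 5.02 and 4.64 in thymus PDPN- and 6.68, 6.31 and 6.33 in lymph node PDPN- cells. The PDPN+BP3+ arrays read 5.79, 5.80 and 5.82, the lymph node PDPN+BP3- arrays 7.56, 7.51 and 7.44, and those of thymus 6.62, 7.13 and 6.88. PDPN+BP3- arrays did not overlap the PDPN- arrays of their own tissue. PDPN+BP3- cells were higher by 2.00 ± 0.14 in thymus (adjusted p = 1.03e-08) and 1.06 ± 0.14 in lymph node (adjusted p = 2.46e-05), while PDPN+BP3+ cells were lower than PDPN- cells (-0.64 ± 0.14, adjusted p = 0.00256).

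Myocd, the coactivator of SRF that drives the smooth muscle programme, stood above the table's median in the PDPN- cells only, with 5.86, 5.87 and 5.89 in thymus, 6.14, 5.82 and 6.04 in lymph node and 2.32 to 3.29 on the 9 PDPN+ arrays, all below the table's median. The differences were -3.48 ± 0.13 in thymus (adjusted p = 4.3e-12), -3.34 ± 0.13 in lymph node PDPN+BP3- (adjusted p = 9.99e-12) and -2.99 ± 0.13 in PDPN+BP3+ cells (adjusted p = 3.27e-11). Srf, by contrast, was above the table's median in all 5 populations, with group means of 6.52 to 7.29. Its differences of -0.52 ± 0.15 in thymus (adjusted p = 0.0179) and -0.54 ± 0.15 in lymph node (adjusted p = 0.0168) were small. The thymus call was lost without PDPN+BP3- replicate 1 or PDPN- replicate 1 or 2 (adjusted p = 0.0504 to 0.0837) and with quantile or cyclic loess normalization (adjusted p = 0.067 and 0.162), and the lymph node call without PDPN- replicate 1 or PDPN+BP3- replicate 3 (adjusted p = 0.0824 and 0.0926) or with only the arrays compared (0.0631). Mef2c, a MADS-box factor of muscle and endothelium, averaged 8.52 and 8.17 in PDPN- cells of thymus and lymph node, 5.34 in lymph node PDPN+BP3-, 4.36 in thymus PDPN+BP3- and 3.77 in PDPN+BP3+ cells. Its differences from PDPN- cells were -4.16 ± 0.17, -2.84 ± 0.17 and, for PDPN+BP3+, -4.40 ± 0.17.

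Within the PDPN+ cells of lymph node, BP3+ and BP3- cells were compared directly, and more members were higher than lower in BP3+ cells. Of the 36 members, 13 were higher in BP3+ cells, 6 were lower and 17 did not pass, against 8.49% higher and 7.74% lower over all genes, with a median of 0.33 for the members and 0.01 for all genes. Higher were Pdlim3 (3.29 ± 0.19, adjusted p = 2.28e-09), Fhl5 (1.82 ± 0.14, adjusted p = 8.25e-08), Sorbs2 (1.63 ± 0.19), Myh11 (1.40 ± 0.16), Actn1 (1.21 ± 0.13), Des (1.08 ± 0.23), Tagln (1.06 ± 0.14), Ppp1r14a (1.02 ± 0.21), Acta2 (0.85 ± 0.12), Csrp1 (0.74 ± 0.12), Tpm2 (0.70 ± 0.18), Flna (0.68 ± 0.16) and Mylk (0.53 ± 0.12). Lower were Fhl1 (-1.70 ± 0.14, adjusted p = 1.76e-07), Mef2c (-1.56 ± 0.17, adjusted p = 3e-06), Dmpk (-1.46 ± 0.15), Smtn (-0.79 ± 0.13), Lmod1 (-0.70 ± 0.19) and Pdlim7 (-0.48 ± 0.11).

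The 3 calcium store genes did not pass, and their means lay below the table's median in both populations. Myl9 (-0.26 ± 0.12, adjusted p = 0.203), Vcl (-0.15, 95% interval -0.45 to 0.15) and Cald1 (0.21, 95% interval -0.22 to 0.64) did not pass either. For 16 of the 17, all but Nexn, the 95% interval lay within 1 log2 unit of 0. The Lmod1 call did not hold without BP3+ replicate 1 or BP3- replicate 1 (adjusted p = 0.0738 and 0.0952), nor that of Tpm2 without BP3+ replicate 2 or BP3- replicate 3 (adjusted p = 0.0509 and 0.0628). Some members passed when 1 array was left out: Myocd without BP3+ replicate 1 (adjusted p = 0.0218), Nexn without BP3+ replicate 3 (0.0169), Synpo2 without BP3- replicate 1 (0.0333) and Srf without BP3- replicate 2 (0.0192). With quantile normalization Tpm1, Myocd and Srf passed (adjusted p = 0.0247 to 0.0436).

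**Figure D4:**
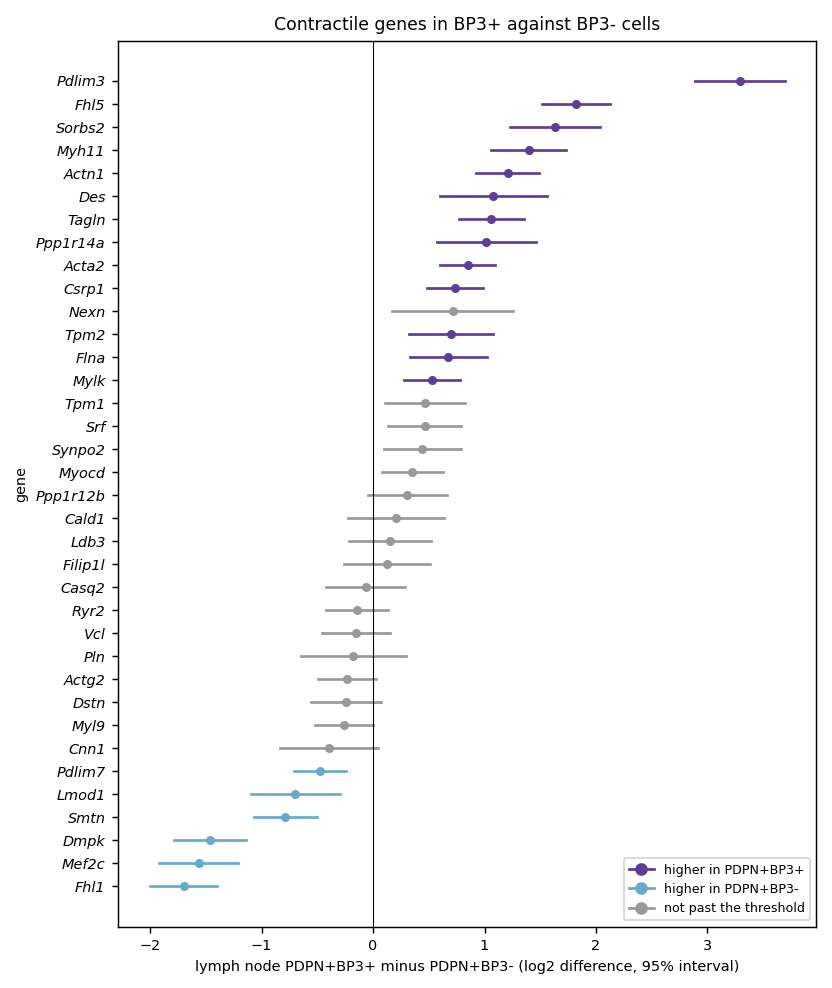
Lymph node PDPN+BP3+ minus PDPN+BP3- cells for the 36 genes, as log2 differences (points) with 95% intervals of the limma fit (lines), sorted by size. Purple genes were higher in PDPN+BP3+ cells, led by Pdlim3 at 3.29, blue genes were higher in PDPN+BP3- cells, down to Fhl1 at -1.70, and grey genes did not pass the threshold.

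In PDPN- cells, most members did not differ between the organs beyond the threshold. The share higher in lymph node was nonetheless above that of all genes. Comparing lymph node with thymus PDPN- cells, 6 members were higher in lymph node, 2 in thymus and 28 did not pass, against 4.42% and 5.19% of all genes, with a median of -0.05 for the members and -0.01 for all genes. For those 28, each 95% interval lay within 1 log2 unit of 0. Lymph node was higher for Cnn1 (2.21 ± 0.21, adjusted p = 2.04e-06), Ryr2 (2.20 ± 0.13, adjusted p = 1.44e-08), Actg2 (2.11 ± 0.12, adjusted p = 1.05e-08) and Fhl1 (1.56 ± 0.14, adjusted p = 1.47e-06), then Synpo2 (0.89 ± 0.16, adjusted p = 0.0016) and Csrp1 (0.40 ± 0.12, adjusted p = 0.0473). Thymus was higher for Casq2 (-1.59 ± 0.17, adjusted p = 8.63e-06) and Smtn (-0.57 ± 0.13, adjusted p = 0.0104). The Csrp1 call was lost when any of the 6 arrays was left out (adjusted p = 0.056 to 0.148), with only genes above the table's median (0.0689) and with only the arrays compared (0.0594), and that of Smtn without thymus PDPN- replicate 2 (adjusted p = 0.0635). Acta2 (0.13, 95% interval -0.12 to 0.38), Myl9 (-0.15, -0.42 to 0.11) and Myh11 (0.30, -0.03 to 0.64) were among the 28, as was Dmpk (0.40, 95% interval 0.08 to 0.73), which passed with quantile or cyclic loess normalization (adjusted p = 0.0128 and 0.0111). Of 12 pericyte markers, 7 were lower in lymph node in the same comparison, against 5.19% of all genes.

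The PDPN+BP3- cells of both organs were compared in the same way. In lymph node 17 members were higher and 2 lower than in thymus, against 11.8% and 5.29% of all genes, with a median of 0.30 for the members and 0.04 for all genes. The largest rises were Pdlim3 (1.91 ± 0.19), Tagln (1.55 ± 0.14), Myh11 (1.52 ± 0.16), Acta2 (1.52 ± 0.12), Sorbs2 (1.15 ± 0.19) and Myl9 (1.06 ± 0.12), each with an adjusted p of at most 0.000409 and arrays that did not overlap. Mef2c, Vcl, Tpm2, Lmod1, Synpo2, Tpm1, Fhl5, Fhl1, Actg2, Csrp1 and Dmpk followed, at 0.53 to 0.97. Ppp1r14a (-0.95 ± 0.21, adjusted p = 0.00459) and Smtn (-0.51 ± 0.13, adjusted p = 0.0135) were lower in lymph node. The calcium store genes did not pass, and their means lay below the table's median in both.

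This comparison contains thymus PDPN+BP3- replicate 1, whose array median was low. Without it the Dmpk difference of 0.53 fell to 0.33 (adjusted p = 0.116), and Dmpk was also lost without lymph node PDPN+BP3- replicate 1 or 2 (adjusted p = 0.0888 and 0.0504). Lmod1 was lost without lymph node PDPN+BP3- replicate 1 (adjusted p = 0.0581) and Smtn without replicate 3 of that population (adjusted p = 0.0743). With only the arrays compared, Tpm2, Dmpk and Smtn did not pass (adjusted p = 0.0544 to 0.099). With cyclic loess normalization, 13 members were higher and 3 lower, and Actg2, Lmod1, Dmpk and Fhl5 did not pass (adjusted p = 0.0666 to 0.113), Fhl1 was at 0.39 (adjusted p = 0.0331) and Ppp1r12b passed as lower (-0.48, adjusted p = 0.026), while over all genes the split moved from 2215 higher and 990 lower to 1332 higher and 1584 lower.

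**Figure D5:**
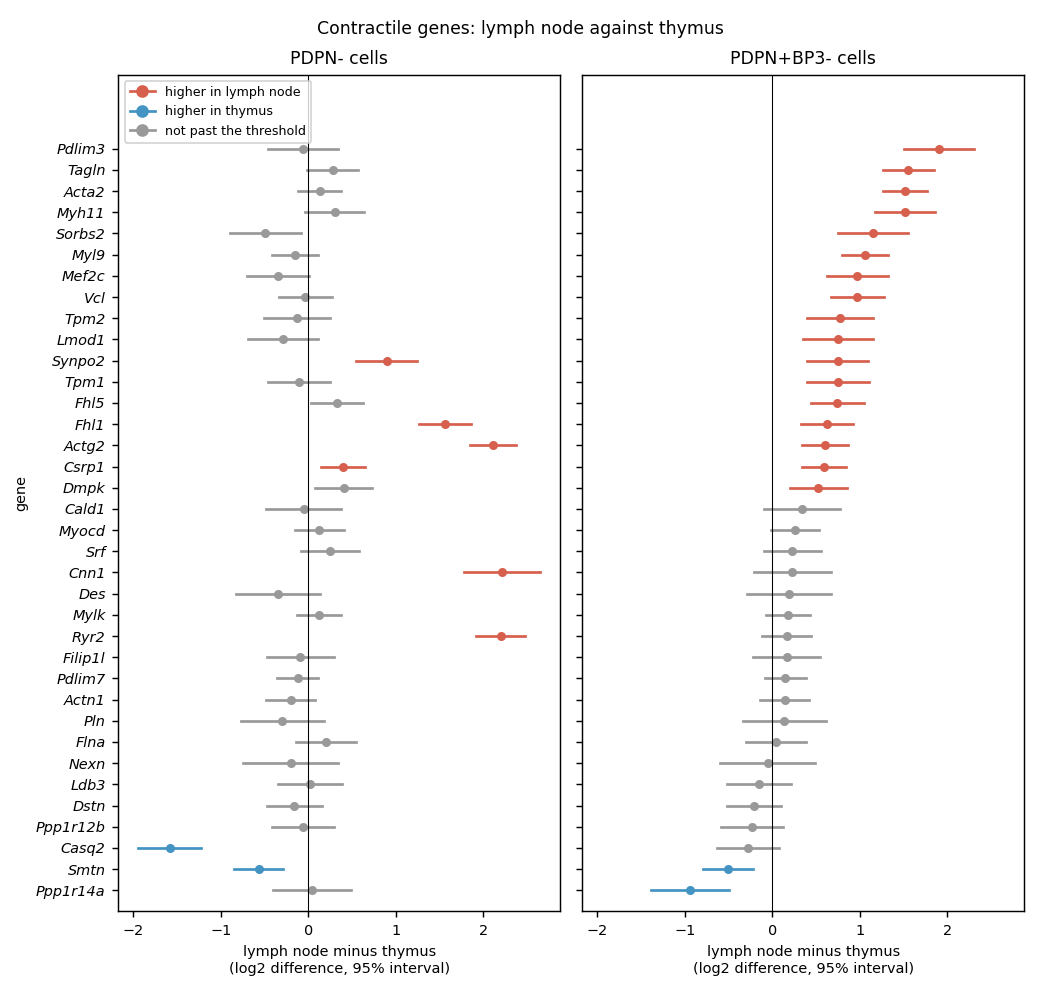
Lymph node minus thymus for the 36 genes in PDPN- cells (left) and in PDPN+BP3- cells (right), as log2 differences with 95% intervals of the limma fit, in 1 order set by the right panel. In PDPN- cells Cnn1, Ryr2, Actg2 and Fhl1 stand out at 1.56 to 2.21 and Casq2 at -1.59; in PDPN+BP3- cells 17 genes are higher in lymph node, led by Pdlim3 at 1.91.

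Whether the contrast between the subsets differs between the organs was tested as an interaction, the lymph node difference minus the thymus difference. It passed for 17 members, 12 of them positive and 5 negative, against 8.67% and 4.05% of all genes. All 12 positive members were lower in PDPN+BP3- than in PDPN- cells in both tissues, and by less in lymph node: Pdlim3 (1.97 ± 0.27, adjusted p = 0.000109), Sorbs2 (1.64 ± 0.27, adjusted p = 0.00058), Acta2 (1.39 ± 0.16, adjusted p = 2.65e-05), Mef2c (1.32 ± 0.24), Casq2 (1.31 ± 0.24), Tagln (1.28 ± 0.19), Myl9 (1.22 ± 0.17), Myh11 (1.21 ± 0.22), Lmod1 (1.04 ± 0.27), Vcl (1.01 ± 0.20), Tpm2 (0.90 ± 0.25) and Tpm1 (0.86 ± 0.24). Of the negative ones, Ryr2 (-2.03 ± 0.19, adjusted p = 1.99e-06), Cnn1 (-1.99 ± 0.29, adjusted p = 0.000224), Actg2 (-1.51 ± 0.17, adjusted p = 2.09e-05) and Ppp1r14a (-0.99 ± 0.30, adjusted p = 0.0376) were lower in PDPN+BP3- cells in both tissues and by more in lymph node, and Fhl1 (-0.94 ± 0.20, adjusted p = 0.00488) was higher in both and by less in lymph node.

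For 12 of the 17 the organs did not differ beyond the threshold in their PDPN- cells; for the remaining 5 (Actg2, Casq2, Cnn1, Fhl1 and Ryr2) they did. The Tpm1 call was lost without thymus PDPN+BP3- replicate 1, thymus PDPN- replicate 1 or 3, lymph node PDPN- replicate 2 or lymph node PDPN+BP3- replicate 1 or 2 (adjusted p = 0.0522 to 0.0742). That of Tpm2 was lost without thymus PDPN+BP3- replicate 1 or 3, thymus PDPN- replicate 1, lymph node PDPN- replicate 2 or 3 or lymph node PDPN+BP3- replicate 1 or 2 (adjusted p = 0.0549 to 0.0743). Ppp1r14a did not pass without thymus PDPN+BP3- replicate 2 or 3, any thymus PDPN- array, lymph node PDPN- replicate 2 or 3 or lymph node PDPN+BP3- replicate 1 (adjusted p = 0.0506 to 0.1), or with only the arrays compared (0.0673). With cyclic loess normalization 10 members were positive and 5 negative, Lmod1 and Tpm2 having been lost (adjusted p = 0.107 and 0.0658), and the calls over all genes moved from 1623 positive and 758 negative to 862 positive and 1215 negative.

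Genes that control contraction without being part of the filaments were mostly lower in PDPN+ cells. Of 23 measured genes of RhoA and calcium control, 18 were lower in thymus PDPN+BP3- cells (18.2% of all genes), 17 lower and 1 higher in lymph node PDPN+BP3- cells (9.79% and 13.4% of all genes), and 18 lower and 1 higher in lymph node PDPN+BP3+ cells (11.2% and 16.1%), each against PDPN- cells. The subunits of the nitric oxide receptor, Gucy1a1 and Gucy1b1, differed in thymus by -3.85 ± 0.14 and -3.43 ± 0.22, and the cyclic GMP kinase Prkg1, which relaxes smooth muscle, by -3.60 ± 0.17 in lymph node PDPN+BP3- and -4.82 ± 0.17 in PDPN+BP3+ cells. Kcnma1, the large-conductance potassium channel, was the 1 gene higher in PDPN+BP3+ cells, with a mean of 6.17 there and 2.68 in lymph node PDPN- cells (3.49 ± 0.13, adjusted p = 3.7e-12). It was also the 1 gene higher in lymph node PDPN+BP3- cells, by 1.17 over PDPN- cells.

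The everyday cytoskeletal relatives of the members were mixed. Of 19 measured non-muscle counterparts, 6 were lower and 3 higher in thymus PDPN+BP3- cells (18.2% and 10.3% of all genes). In lymph node 7 were lower and 3 higher in PDPN+BP3- cells (9.79% and 13.4%), and 2 lower and 4 higher in PDPN+BP3+ cells (11.2% and 16.1%). The list's mean was 8.71 to 8.94 in every population. Myh10, a non-muscle myosin heavy chain, was higher in PDPN+BP3- cells (2.49 ± 0.16 in thymus, 1.40 ± 0.16 in lymph node), where Myh11 was lower. Its mean was highest in lymph node PDPN+BP3+ cells, at 7.33 against 6.75 in PDPN+BP3- and 5.35 in PDPN- cells of lymph node. Myh11 also averaged more in PDPN+BP3+ (7.58) than in PDPN+BP3- cells (6.19) of lymph node. Myh9, also a non-muscle heavy chain, had the lower mean in PDPN+BP3- cells, as Myh11 did. It averaged 8.30 in PDPN+BP3- and 9.19 in PDPN- cells of thymus, and 8.30 and 9.29 in those of lymph node. For 33 sarcomere genes of striated muscle the list's mean was 2.82 to 2.93 in every population, below the table's median. By limma 0 of the 33 passed in thymus PDPN+BP3- cells (1 at an unadjusted p under 0.05). In lymph node 4 were lower and 1 higher in PDPN+BP3- cells and 2 lower and 1 higher in PDPN+BP3+ cells, with 9.79% and 11.2% of all genes lower.

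Among 19 cofactors and repressors of SRF, 11 were lower and 3 higher in thymus PDPN+BP3- cells, 7 lower and 5 higher in those of lymph node, and 8 lower and 3 higher in PDPN+BP3+ cells, each against PDPN- cells. Over all genes 18.2% were lower and 10.3% higher in the first comparison, 9.79% and 13.4% in the second and 11.2% and 16.1% in the third. The Notch effectors Hey2, Heyl and Hey1 were lower in thymus (-3.51 ± 0.20, -2.82 ± 0.16 and -2.10 ± 0.12), and Klf4, a repressor of smooth muscle genes, was higher (2.19 ± 0.13). In lymph node Klf5 was above its PDPN- level in PDPN+BP3- cells (3.31 ± 0.13) and lower in PDPN+BP3+ than in PDPN+BP3- cells (-3.33 ± 0.13). Between PDPN+ cells of lymph node, 4 of the 19 were higher in BP3+ cells and 8 lower (8.49% and 7.74% of all genes). Hey1 and Hey2 were among the higher (1.48 ± 0.12 and 2.11 ± 0.20) and Klf4 among the lower (-1.47 ± 0.13). Of 25 genes that link the apparatus to the membrane and basement membrane, 13 were lower and 6 higher in thymus PDPN+BP3- cells, 10 lower and 8 higher in those of lymph node, and 10 lower and 4 higher in PDPN+BP3+ cells, beside the same shares of all genes. Itga7, a laminin receptor of muscle, was lower (-5.09 ± 0.15 and -3.73 ± 0.15), and Sgcd, a sarcoglycan, was higher (3.94 ± 0.15 and 3.09 ± 0.15). Cav1, the caveolae protein, was 4.96 ± 0.19 lower on the log2 scale in PDPN+BP3+ than in PDPN- cells, with a difference of -3.73 ± 0.19 from PDPN+BP3- cells.

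Markers of other cells moved with some of these contrasts, and their part in the results was not tested. Of 12 pericyte markers, 11 were lower in thymus PDPN+BP3-, 10 in lymph node PDPN+BP3- and 11 in PDPN+BP3+ cells than in PDPN- cells, and 1 was higher in each lymph node comparison. Over all genes 18.2%, 9.79% and 11.2% were lower, in the same order, and 13.4% and 16.1% higher in the lymph node comparisons. The pericyte list's mean over arrays was 9.04 to 9.92 in PDPN- and 6.68 to 7.07 in PDPN+ cells. Adventitial fibroblast markers went the other way, with 9 of 9 higher in PDPN+BP3- cells of thymus and of lymph node (10.3% and 13.4% of all genes). In PDPN+BP3+ cells 3 were higher and 2 lower than in PDPN- cells (16.1% and 11.2%), and 9 of 9 lower than in PDPN+BP3- cells (7.74%). Their mean was 8.69 to 9.63 in PDPN+BP3-, 5.79 to 6.04 in PDPN+BP3+ and 3.91 to 5.22 in PDPN- cells. T lineage markers (10 measured) averaged 3.99 on thymus PDPN+BP3- replicate 1, 5.04 to 5.54 on the other thymus arrays and 2.76 to 3.36 in lymph node. In both tissue comparisons 8 of 10 were lower in lymph node (5.29% of all genes for PDPN+BP3- and 5.19% for PDPN- cells). Within thymus 3 of the 10 were lower in PDPN+BP3- than in PDPN- cells (18.2% of all genes) and 0 higher. Epithelial markers (8 measured) averaged 3.49 on thymus PDPN+BP3- replicate 1, 4.09 to 4.73 on the other thymus arrays and 2.73 to 2.93 in lymph node. Of these, 4 were lower in thymus PDPN+BP3- than in PDPN- cells and 0 higher (18.2% and 10.3% of all genes). Between tissues, 6 of the 8 were lower in lymph node for PDPN+BP3- cells and 7 for PDPN- cells (5.29% and 5.19% of all genes). Endothelial markers (12 measured) averaged 3.66 to 3.87 on the lymph node PDPN+BP3+ arrays, 4.34 to 4.73 on PDPN+BP3- and 3.97 to 4.47 on PDPN- arrays of lymph node, and 3.74 to 4.31 in thymus. Of the 12, 8 were lower in PDPN+BP3+ than in PDPN+BP3- cells of lymph node (7.74% of all genes). In lymph node PDPN+BP3- cells 6 were higher and 1 lower than in PDPN- cells (13.4% and 9.79% of all genes), and 6 higher and 1 lower than in thymus PDPN+BP3- cells (11.8% and 5.29%). Myeloid markers (9 measured) averaged 2.54 to 3.37 and B cell markers (5 measured) 2.23 to 2.51, both below the table's median on every array.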

How the data were processed

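Transcript levels of PDGFRβ+ stromal cells were measured on 15 Affymetrix Mouse Gene 1.1 ST arrays, 3 for each of 5 sorted populations grouped by their titles. The authors deposited log2 values of RMA signals, made in Affymetrix Expression Console per the submitters' processing notes; base 2 was inferred from the range. The labels give no versions. RMA makes arrays comparable but gives no level per molecule, and the number of arrays limits the precision.

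Of 24758 rows, 20844 had 1 gene symbol, 1735 had several and 2179 none; rows with several or none were left out. For 1230 genes with more than 1 row, the row with the highest mean was kept, which left 18718 genes. One mean per population was fitted in limma 3.58.1 (R 4.3.3) over all 15 arrays, with eBayes and Benjamini-Hochberg adjustment over all genes (threshold 0.05), for 6 pairwise comparisons and 1 interaction. The 3 comparisons within lymph node share arrays, as do the tissue comparisons and the interaction with those within a tissue; those within thymus and within lymph node share none. The fit was tested on simulated data. Within a population, arrays correlated at 0.987 to 0.995 across genes, and no 2 were identical.

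All 36 members are described. Of other lists, genes were named from those that passed with the smallest adjusted p. Members and lists were chosen with earlier results of these data known. Alternatives were the replicate number as a block, quantile and cyclic loess normalization, only genes with a mean above the table's median, a trended and robust prior, the mean of all rows of a gene, only the arrays compared, and leaving out each array. Promoters came from RefSeq (GRCm38.p6), and the CArG box was matched in windows of 300 bases.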

Additional observations from a re-analysis of the deposited data

Results flagged for a closer look

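For 17 members the PDPN+BP3- cells differed from PDPN- cells to another extent in lymph node than in thymus, by the interaction test of the limma fit. The values are the lymph node difference minus the thymus difference, on the log2 scale. Among thin filament genes they were 1.39 for Acta2, -1.51 for Actg2, 1.28 for Tagln, -1.99 for Cnn1, 1.04 for Lmod1, 0.86 for Tpm1 and 0.90 for Tpm2. Among myosin and phosphatase genes they were 1.21 for Myh11, 1.22 for Myl9 and -0.99 for Ppp1r14a. The calcium store genes Casq2 and Ryr2 were at 1.31 and -2.03. Scaffold and adhesion genes were at 1.64 for Sorbs2, 1.97 for Pdlim3 and 1.01 for Vcl, and Fhl1 and Mef2c were at -0.94 and 1.32. Within the thin filament block, Acta2 and Tagln thus lay on the opposite side from Actg2 and Cnn1. For Acta2 and Tagln the organs differed by the test in PDPN+BP3- cells and not in PDPN- cells. Actg2 was higher in lymph node in both, and Cnn1 in PDPN- cells only. The PDPN+BP3- means of Cnn1, 2.48 in thymus and 2.70 in lymph node, lay below the table's median, as did those of Casq2 and Ryr2.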

How the results depend on the processing

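Over 36 members and 7 comparisons, 159 of 252 differences passed the threshold. Of these, 135 passed under every alternative in which they were tested, 24 were lost under at least 1, and no difference that passed changed sign. Of the 93 that did not pass, 13 passed under at least 1 alternative. The count of members that passed stayed within 1.5 times the reported count except between PDPN- cells, where restricting the fit to genes with a mean above the table's median left 5 of 33 members (3 higher and 2 lower in lymph node) in place of 8. Cnn1, Ldb3 and Ryr2 had a mean below that median and were not in this fit. Cnn1 and Ryr2 were therefore left untested there, while Csrp1 was tested and did not pass. With the replicate number as a block the counts of members that passed were 34, 32, 30, 19, 19, 8 and 17, equal to those reported; in lymph node PDPN+BP3+ against PDPN- cells Tagln was lost (adjusted p = 0.065) and Smtn gained (0.0455). In no pair of populations did the deviations of all same-numbered arrays correlate above 0.1, so the numbers were not taken as a pairing. These correlations were all positive between the PDPN+ populations of lymph node (0.064 to 0.154). They were all negative between those of thymus (-0.174 to -0.142). Leaving out each array in turn gave 31 to 33 members in thymus, 31 in lymph node PDPN+BP3- cells, 27 to 29 for PDPN+BP3+ against PDPN- cells, 18 to 20 for BP3+ against BP3- cells, 17 to 19 and 6 to 7 between tissues and 14 to 17 for the interaction.

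Differences that did not pass changed sign under some settings; none was above 0.33 in size as reported, and the cause was not tested. With cyclic loess normalization these were, in the interaction Dmpk (-0.19), Filip1l (-0.019), Mylk (-0.21), Myocd (-0.0696), Nexn (-0.12) and Smtn (-0.22), in lymph node against thymus PDPN+BP3- cells Actn1 (-0.028), Filip1l (-0.053), Flna (-0.11), Mylk (-0.028), Pdlim7 (-0.036) and Pln (-0.049), in lymph node against thymus PDPN- cells Pdlim3 (0.0083) and Ppp1r12b (0.015), in thymus PDPN+BP3- against PDPN- cells Dmpk (0.044). With the mean of all rows of a gene these were, in the interaction Ppp1r12b (0.23), in lymph node BP3+ against BP3- cells Ppp1r12b (-0.16), in lymph node PDPN+BP3+ against PDPN- cells Actn1 (-0.015), in lymph node against thymus PDPN+BP3- cells Ppp1r12b (0.073). With quantile normalization these were, in the interaction Dmpk (-0.13), Mylk (-0.19) and Smtn (-0.14), in lymph node against thymus PDPN+BP3- cells Actn1 (-0.01), Filip1l (-0.037), Flna (-0.0901) and Mylk (-0.015). The members' median between PDPN- cells was 0.012 with cyclic loess normalization and -0.069 to 0.058 when each array was left out. For the interaction, the range was -0.07 to 0.26 for Dmpk, -0.22 to 0.10 for Dstn, -0.29 to 0.057 for Flna, -0.37 to 0.033 for Ldb3, -0.025 to 0.15 for Mylk, -0.10 to 0.35 for Nexn, -0.033 to 0.18 for Smtn, -0.15 to 0.12 for Srf and -0.28 to 0.045 for Synpo2. For lymph node BP3+ against BP3- cells, the range was -0.21 to 0.01 for Casq2 and -0.33 to 0.07 for Pln. For lymph node PDPN+BP3+ against PDPN- cells, the range was -0.20 to 0.053 for Srf. For lymph node PDPN+BP3- against PDPN- cells, the range was -0.16 to 0.053 for Dmpk and -0.057 to 0.048 for Pdlim7. For lymph node against thymus PDPN+BP3- cells, the range was -0.078 to 0.35 for Filip1l, -0.093 to 0.26 for Flna, -0.22 to 0.15 for Nexn and -0.11 to 0.29 for Pln. For lymph node against thymus PDPN- cells, the range was -0.31 to 0.0083 for Dstn, -0.19 to 0.21 for Ldb3, -0.34 to 0.043 for Nexn, -0.27 to 0.06 for Pdlim3, -0.20 to 0.072 for Ppp1r12b, -0.10 to 0.24 for Ppp1r14a and -0.18 to 0.048 for Vcl.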
